A study of Mus musculus with 13 samples.

Results

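The cells described here were the large-vessel endothelial cells of the mouse liver, the flat cells that line central veins, portal veins and hepatic arteries. They were picked barcode by barcode from single-cell RNA counts. A cell needed at least 1500 UMIs (unique molecular identifiers, each one captured transcript), at least 3 UMIs of Vwf and at least 1 UMI of Pecam1 or Cdh5. It could hold at most 1 UMI over the sinusoidal genes Stab2, Clec4g, Gpr182 and Oit3, and none of the leukocyte gene Ptprc or the epithelial gene Epcam. Of 95563 cells in 13 libraries, 437 met this rule. The levels of these 9 genes therefore chose the cells and are given only as a description.

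The libraries were 10x Genomics 3′ libraries of sorted liver cells from male C57BL/6J mice aged 6 to 12 weeks at cell isolation, fed chow containing the compound 3,5-diethoxycarbonyl-1,4-dihydrocollidine (abbreviated DDC) at 0.1%, a porphyrinogenic agent that injures bile ducts and causes cholestasis. The D0 libraries were undamaged steady state, D3 and D5 onset, and D9, D19 and D25 progression, with the number giving the days on DDC. STOP was recovery, after 18 days of DDC and 7 days of normal chow. Each D time point had 1 library of isolation protocol A and 1 of protocol B, and STOP was protocol B. Protocol A sorted, among other gates, Lyve-1+ cells and Cd31+ Lyve-1- cells, whereas protocol B had neither of these gates, and the populations were mixed in set proportions. The number of large-vessel cells per library is therefore set by the sort and is no measure of vessel mass. The D19 B library is labelled D18. The labels do not say which or how many mice made a library, so the p-values below measure the spread between these libraries.

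Protocol A libraries held 47 (D0 A), 28 (D3 A), 92 (D5 A), 83 (D9 A), 80 (D19 A) and 70 (D25 A) of the cells, 400 in all, and only these 6 libraries reached the 20 cells required for a test. The protocol B libraries and STOP held 0 to 13 cells each, 37 in all, and D0 B had 0 of 6998 cells, which allows a share of up to 0.0429% (3 counts, counting error only). Member cells made up 0 to 1.36% of the cells of a library. Their median UMI count ran from 3051 (D25 A) to 5808 (D3 A), and their summed UMIs from 168917 (D3 A) to 441567 (D5 A) in the protocol A libraries. Whole libraries held 29307190 to 108602421 UMIs. Of all pairs of libraries, only D3 A and D25 A shared a member barcode, and they shared 1.

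Vessels of the liver differ by their place in the lobule. Sinusoidal endothelial cells line fenestrated capillaries and scavenge through receptors such as Stab1 and Mrc1, while the endothelium of veins and arteries is continuous and stores von Willebrand factor. Endothelium of the central vein is known as a source of Rspo3, Wnt2 and Wnt9b, which hold neighbouring hepatocytes in the pericentral state, and endothelium of the portal vein and artery is known for Notch ligands and their targets and for elastic fibre genes. In cholestatic injury the portal vessels lie beside the bile ducts that are damaged.

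The marker levels follow from the rule and are a description. Vwf, which carries clotting factor VIII and tethers platelets, stood at 2612, 1954, 1948, 2238, 1834 and 1984 CPM in D0 A, D3 A, D5 A, D9 A, D19 A and D25 A, the order kept for all lists of 6 values below. A level is always in CPM, the UMIs of a gene per 1000000 UMIs of the cells summed. The adhesion molecule Pecam1 ran from 1012 to 1452 and the cadherin Cdh5 from 758 to 1121. Genes the rule did not use, the large-vessel and sinusoidal lists, are given in the comparison with sinusoidal cells below. Those cells were selected in the opposite way by the same genes, so the comparison is a description and no check of the label. Just inside the Vwf threshold, at 3 UMIs, stood 8, 2, 15, 18, 9 and 14 cells, and just outside it, at 2 UMIs, stood 9, 3, 16, 13, 7 and 18 cells. With 2 UMIs of the sinusoidal genes, 42, 26, 40, 41, 41 and 37 further cells were just outside. With 3 or more, 120, 273, 239, 119, 156 and 90 cells were outside. Of the members, 36, 20, 49, 50, 35 and 29 held exactly 1 such UMI. The limit was in raw UMIs, and D3 A had the highest median UMIs per cell of the 6 protocol A libraries (8433.5 over all its cells). The part of this limit in the differences between libraries was not tested. Doublets were not removed.

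RNA of other cell types was present at levels that differed between the 6 protocol A libraries. The leukocyte list summed to 640, 160, 385, 508, 3037 and 1359 CPM, and 2, 2, 2, 22, 44 and 31 cells held at least 3 UMIs of it. The levels from D9 A to D25 A were above the other libraries except that D0 A exceeded D9 A. In sinusoidal cells of the same libraries the same list summed to 173, 155, 149, 626, 578 and 651. Hepatocyte genes summed to 319 to 878, stellate and fibroblast genes to 24 to 188 and cholangiocyte genes to 5 to 143. Lymphatic genes reached 1007 in D25 A, where 3 cells held 78% of them, against 115 to 210 in the other 5 protocol A libraries. Platelet genes reached 752 in D3 A, where 1 cell held at least 3 UMIs, against 22 to 189 in the other 5. The 37 cells of the other libraries were too few for such sums to be compared.

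The large-vessel cells were set beside the 19931 sinusoidal endothelial cells of the same 6 libraries, and Edn1, Cd200, Bmp4 and Fbln2 had the widest gap between the lowest large-vessel and the highest sinusoidal library among genes with a large-vessel median of at least 200 CPM. The sinusoidal cells were chosen by at least 4 UMIs of the 4 sinusoidal genes and none of Vwf, so the 2 cell types were set apart by their selection and the levels are a description with no test. Edn1, the vasoconstrictor endothelin, ran from 799 to 1884 CPM with a median of 1182 over the 6 libraries, against a sinusoidal median of 10.9 and maximum of 15.3. The BMP ligand Bmp4 ran from 266 to 729 against a sinusoidal median of 3.20, and the immune-inhibitory ligand Cd200 from 339 to 670 against 4.25. Rspo3, which amplifies Wnt signalling, ran from 1403 to 3291 against 97.2. The number of genes with a member median of at least 200 CPM was not counted, nor the number separated the other way. In all, 70 genes of at least that median had a lowest member library above the highest sinusoidal library, a count without a share.

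Genes of elastic fibres and the vessel wall were among them. Fbln2, a fibulin, had a median of 494 against 9.35 in sinusoidal cells, and Fbln5, which organises elastic fibres, had 225 against 3.96. Elastin itself, Eln, had 321 against 3.85, and Mgp, an inhibitor of calcification, had 640 against 8.41. Entpd1, the surface enzyme that breaks down extracellular ATP and ADP, had 559 against 23.3. For each of these genes the 6 large-vessel values lay above all 6 sinusoidal values.

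**Figure D1:**
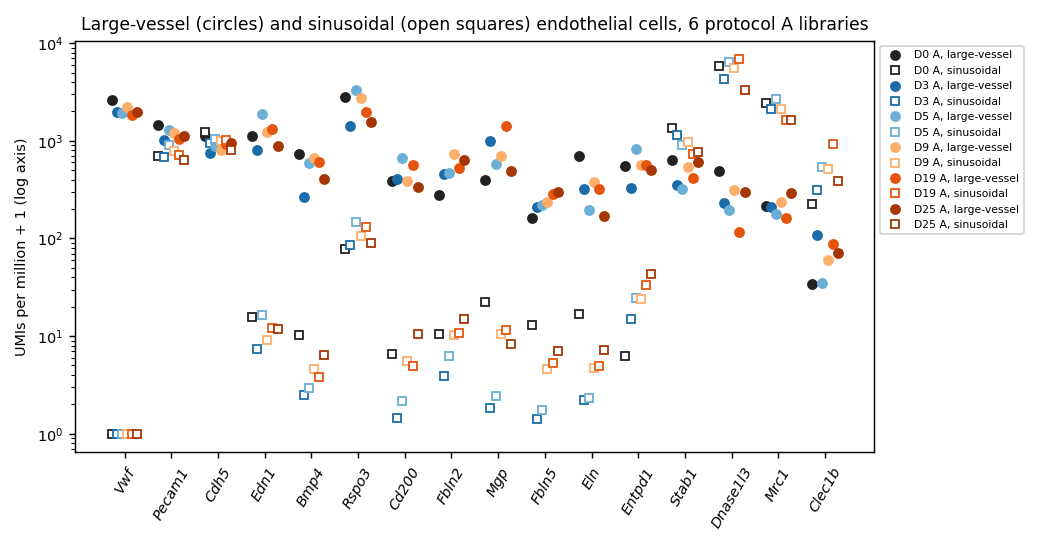
Levels of 16 genes in large-vessel cells (circles) and sinusoidal cells (open squares) of the 6 protocol A libraries, in CPM plus 1 on a log axis, 1 point per library. Vwf, Edn1, Bmp4, Rspo3 and the elastic fibre genes sit to the high side in large-vessel cells and Stab1, Dnase1l3, Mrc1 and Clec1b to the high side in sinusoidal cells.

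The lists described the same contrast by function. The share of all genes that were above or below in all 6 libraries was not counted. Of 18 large-vessel genes at 50 or more CPM, 11 were above the sinusoidal cells in all 6 libraries and 1 was below, the tight-junction gene Cldn5 with a median of 210 against 613. Erg (112 against 148), Mcam (159 against 181), Sox18 (127 against 148) and Podxl (264 against 314) also had lower medians, but not in all 6 libraries. Sox17 had the same median in both (69.7). Of 12 portal and arterial genes, 8 were above and 0 below, and of 9 central vein genes 5 were above and 1, Kit, below. Of 11 sinusoidal genes that the selection did not use, 0 were above and 10 below, including the nuclease Dnase1l3 (263 against 5756), the mannose receptor Mrc1 (211 against 2106) and the hyaluronan receptor Lyve1 (19.8 against 768). The whole list of 12 summed to 2179 to 3355 in large-vessel cells and to 14332 to 21761 in sinusoidal cells.

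Secreted signals divided between the 2 cell types, and here too no share over all genes was counted. Of 14 angiocrine genes, 7 were higher in large-vessel cells in all 6 libraries, among them Tgfb2 (174 against 4.61), the matricellular genes Ccn1 (804 against 69.9) and Ccn2 (618 against 86.7), Wnt9b and Pdgfb. The other direction held 5, among them Bmp2 (226 against 2170), the ligand that induces hepcidin, and the hepatocyte growth factor Hgf (12.1 against 177). Of 9 leukocyte adhesion genes, 4 were higher in all 6 libraries and 0 lower, including the selectins Sele (529 against 85.0) and Selp (470 against 68.0). The VEGF receptor Kdr was lower, at 660 against 2619, and clotting factor F8 was lower, at 917 against 1405. Basement membrane collagen Col4a1 was lower too, at 106 against 233.

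The large-vessel cells were not uniform, and Rspo3 divided them. At least 1 UMI of Rspo3 was found in 269 of the 400 cells and in 38 of 47, 10 of 28, 59 of 92, 68 of 83, 53 of 80 and 41 of 70 cells by library. The Rspo3-positive and Rspo3-negative cells of D5 A, D19 A and D25 A, the libraries with at least 20 cells on both sides, were summed and compared by edgeR's quasi-likelihood test with the library as a block and Benjamini-Hochberg adjustment. Of 2858 genes tested, 275 (9.62%) were called at an adjusted p of 0.05, 130 (4.55%) higher and 145 (5.07%) lower in Rspo3-positive cells. Rspo3 itself made the split and is no result. The direction was the same in all of D0 A, D3 A and D9 A, which the fit did not use, for 207 of the 275 called genes (75.3%) and for 848 of the 2858 tested (29.7%). Median UMIs of positive and negative cells were 4125 and 4172 in D5 A, 4870 and 5657 in D19 A, and 3291 and 2892 in D25 A.

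Rspo3-positive cells carried the Wnt ligands of the central vein. Wnt9b stood at 654, 382 and 332 CPM in Rspo3-positive cells of D5 A, D19 A and D25 A and at 0, 0 and 46.6 in Rspo3-negative cells. Its log2 fold change was 5.38 ± 0.58 (SE; edgeR adjusted p = 5.16e-06), and D0 A, D3 A and D9 A gave 715, 395 and 459 against 0, 0 and 13.4. Wnt2 stood at 378, 213 and 235 against 0, 6.20 and 11.7 (log2 fold change 5.59 ± 0.54, edgeR adjusted p = 1.3e-06). Both Wnt genes were higher in the positive cells of all 6 libraries. Sinusoidal cells of the same libraries had a Wnt2 median of 286, above the large-vessel cells as a whole in 5 of 6 libraries, and a Wnt9b median of 39.2, below them in all 6.

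Other genes followed the same side. Kit was also high in sinusoidal cells, with a median of 604 and above the large-vessel cells in all 6 libraries. The receptor tyrosine kinase Kit stood at 262, 99.3 and 194 against 0, 0 and 35.0 (4.43 ± 0.62, edgeR adjusted p = 7.28e-05), the transcription factor Lhx6 at 225, 114 and 111 against 0, 12.4 and 0 (4.75 ± 0.64, adjusted p = 4.72e-05), and Tgfb2 at 334, 184 and 145 against 13.5, 18.6 and 11.7 (3.85 ± 0.42, adjusted p = 6.43e-06). The adhesion molecule Alcam stood at 395, 228 and 270 against 0, 0 and 23.3 (5.68 ± 0.58, adjusted p = 2.85e-06). Plppr5, a membrane protein, was at 163, 91.9 and 124 and at 0 in all 3 negative sums, which makes it at least 16.9-fold higher. The list of central vein genes, written with earlier results of these data known, had 6 of 7 tested members higher and 0 lower, with a median of 4.43, against 4.55% higher and a median of 0.01 over all tested genes. Col6a3, Ncam1, Klk8 and Cyp1b1 completed the genes with the largest differences on this side, at 76.0 to 324 in positive and 0 to 35 in negative cells.

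Several genes differed by less and not in every library. Bmp4 stood at 800, 816 and 581 against 169, 235 and 117 (2.07 ± 0.24, edgeR adjusted p = 1.29e-05), but at 708 against 807 in D0 A, which was not in the fit. The selectin Selp stood at 739, 555 and 913 against 196, 149 and 350 (1.72 ± 0.24, adjusted p = 6.12e-05), but D0 A gave 350 against 1224 and D9 A 371 against 417. The TGF-beta co-receptor Eng was higher by 1.5 ± 0.18 on the log2 scale, the cyclooxygenase Ptgs1 by 1.79 ± 0.26 and Vcam1 by 1.59 ± 0.23, and Vcam1 went the other way in D0 A (1114 against 2084) and D9 A (540 against 954). Edn1 was high on both sides, at 1914, 1360 and 1078 against 1826, 1289 and 536, and was not called (0.33 ± 0.20, adjusted p = 0.442). The differences of Kdr (1.28 ± 0.23) and Entpd1 (1.15 ± 0.22) passed the test, but not without D5 A (1.06, adjusted p = 0.0563, and 1.01, adjusted p = 0.0692).

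Rspo3-negative cells carried genes of the large-vessel, portal and arterial lists. Mgp stood at 74.9, 69.9 and 6.91 CPM in Rspo3-positive cells and at 1589, 3718 and 1318 in Rspo3-negative cells, and fell by 5.31 on the log2 scale with an SE of 0.32 (edgeR adjusted p = 5.03e-09). Ly6c1, a membrane antigen of continuous endothelium, stood at 6.81, 3.68 and 6.91 against 757, 409 and 315 (−6.39 ± 0.40, adjusted p = 8.16e-09). Adgrg6, an adhesion G protein-coupled receptor, stood at 44.3, 14.7 and 48.4 against 893, 266 and 350 (−3.88 ± 0.33, adjusted p = 2.92e-07). All 3 were higher in the negative cells of each of these libraries, with no overlap.

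The Notch ligands were on this side as well. Dll4 stood at 3.41, 11 and 0 against 176, 99.2 and 128 (−4.44 ± 0.61) and Jag1 at 140, 84.6 and 111 against 433, 217 and 338 (−1.54 ± 0.26), and the Notch target Hes1 differed by −1.62 ± 0.25, all called by edgeR. Efnb2, the arterial ephrin ligand, stood at 20.4, 14.7 and 69.1 against 162, 291 and 187 (−2.86 ± 0.42), and the arterial transcription factor Sox17 differed by −2.60 ± 0.46. Sinusoidal cells had medians of 56.9 for Dll4, 98.2 for Efnb2 and 274 for Hes1. The large-vessel cells as a whole had 45.8, 95.1 and 207. Jag1 was higher in large-vessel cells, at 217 against 27.4, and Sox17 had the same median in both. Of 12 portal and arterial genes tested, 0 were higher and 9 lower, with a median of −1.63, against 5.07% of all tested genes lower and a median of 0.01. The large-vessel list had 0 of 19 higher and 11 lower, with a median of −1.07.

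Growth factors and Wnt antagonists were among the largest differences. Nrg1, an ERBB ligand, stood at 0, 0 and 13.8 against 717, 167 and 420 (−6.95 ± 0.54, edgeR adjusted p = 9.88e-08), and the lymphangiogenic factor Vegfc at 0, 3.68 and 0 against 325, 105 and 140 (−6.59 ± 0.63). The Wnt antagonists Sfrp1 and Dkk2 were at 0 in the Rspo3-positive cells of all 3 libraries, and so at least 28.8-fold and 23.4-fold lower there. They came from few cells, with Sfrp1 in 7, 5 and 4 cells and Dkk2 in 3, 4 and 3 cells of D5 A, D19 A and D25 A. Mal, a membrane proteolipid, was at 0 in the Rspo3-positive cells of all 6 libraries and at 379, 99.2 and 117 in Rspo3-negative cells, at least 49.2-fold lower (adjusted p = 1.23e-06). The proteoglycan Sdc1 stood at 0, 0 and 6.91 against 298, 223 and 257, and the collagen Col8a1 at 3.41, 0 and 6.91 against 588, 105 and 222. Syt15 and the hemicentin Hmcn1 were the others of this group, at 0 to 27.7 in positive and 86.8 to 385 in negative cells.

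**Figure D2:**
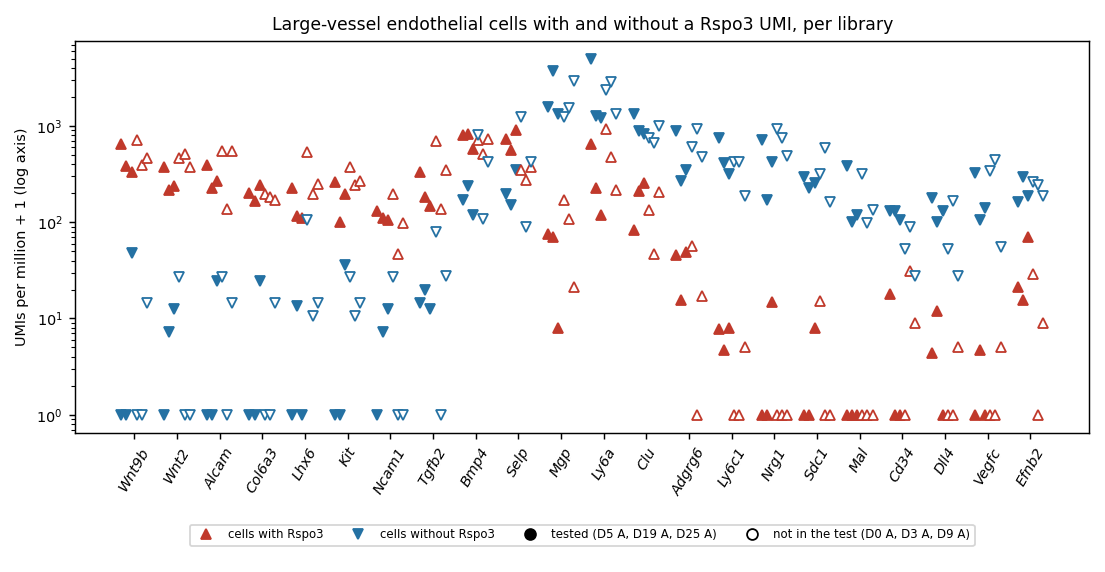
Levels of 22 genes in cells with Rspo3 (red, upward triangles) and without it (blue, downward triangles), in CPM plus 1 on a log axis. Filled symbols are D5 A, D19 A and D25 A, which entered the test, and open symbols are D0 A, D3 A and D9 A. Wnt9b and Wnt2 sit high in cells with Rspo3, and Mgp, Ly6c1, Mal and Nrg1 sit high in cells without it.

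The genes were also counted cell by cell. Of the 269 Rspo3-positive cells, 66.2% held a UMI of Wnt9b and 62.8% one of Wnt2, against 2.29% of the 131 Rspo3-negative cells for each. Nrg1 was in 0.743% of positive and 53.4% of negative cells, and Adgrg6 in 10.4% and 67.9%. Other genes were common on both sides, with Ltbp4 in 61.0% of positive and 86.3% of negative cells, Ly6a in 49.8% and 81.7%, Jag1 in 33.5% and 60.3%, Bmp4 in 78.1% and 31.3% and Selp in 63.9% and 38.2%. For sets of genes picked after these values were seen (Wnt9b, Wnt2, Kit, Lhx6 and Alcam against Adgrg6, Ly6c1, Mal, Sdc1 and Nrg1), 220 positive cells held the first set alone, 4 the second alone, 31 both and 14 neither. Among negative cells 6 held the first alone, 102 the second alone, 11 both and 12 neither. The arterial connexin Gja5 was in 0% and 1.53% of them.

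Leukocyte RNA also differed between the sides. The leukocyte list had 4 of 6 tested genes higher in Rspo3-positive cells and 0 lower, with a median of 1.52. Over all tested genes 4.55% were higher and the median was 0.01. The neutrophil gene S100a8 stood at 194, 1445 and 664 against 13.5, 99.2 and 105 (3.44 ± 0.32, called by edgeR). Few cells carried it, with 1 cell holding 94.9% of its UMIs in D5 A and 3 cells holding 56.5% in D19 A and 89.5% in D25 A. Cells with at least 3 UMIs of the leukocyte list were 30 of 53 and 14 of 27 in D19 A and 21 of 41 and 10 of 29 in D25 A, in positive and negative cells. The part of these transcripts in the other differences was not tested. The 275 calls were 133 with DESeq2, 112 with cells thinned to 1500 UMIs, and 134 without D5 A, 246 without D19 A and 347 without D25 A.

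Whether the makeup changed on the diet was asked of shares of cells with a UMI, after thinning each cell to 1500 UMIs. Rspo3 was found in 78.7% of D0 A cells (exact 95% binomial interval 64.3 to 89.3%), 35.7% in D3 A (18.6 to 55.9%), 64.1% in D5 A, 81.9% in D9 A, 62.5% in D19 A and 55.7% in D25 A. In 400 sinusoidal cells of each library the share was 3.25 to 8.75%, with median depths before thinning of 3102.5 to 8429 UMIs in sinusoidal and 3051 to 5808 in large-vessel cells. D3 A stood below the other libraries, and D9 A lay within the interval of D0 A. The 5 DDC libraries averaged 60% ± 16.7 (SD), and an exact two-sided permutation of the library labels gave p = 0.5 (adjusted p = 0.833 over 7 genes). With 1 library against 5 the smallest p possible was 0.167.

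Wnt9b was found in 51.1% of thinned D0 A cells and in 14.3, 37.0, 33.7, 17.5 and 25.7% of the DDC libraries, each below D0 A. The mean of the DDC libraries was 25.6% ± 9.86 (SD, n = 5) and the exact permutation p was 0.167, the smallest possible (adjusted p = 0.389). The sinusoidal share of Wnt9b was 1.5 to 6.75%. Sox17 was found in 19.1% of D0 A cells and 6.25 to 14.3% of DDC cells, but in 6 to 15.8% of sinusoidal cells, and was above the sinusoidal share in D0 A, D3 A, D5 A and D9 A and below it in D19 A and D25 A. Cd34, an antigen of continuous endothelium, was found in 0 of the 47 thinned D0 A cells, which allows a share of up to 6.38% of cells with a UMI at this depth, and in 3.61 to 7.14% of cells of the DDC libraries. Before thinning 2 of the 47 cells held it. The exact permutation p was 0.167 for both, again the smallest possible. Without thinning the p was 0.5 for Sox17 and 0.333 for Cd34. D3 A then had the highest share of both, Cd34 was still lowest in D0 A (4.26%, against 4.82 to 32.1% on DDC), and Sox17 in D0 A (31.9%) was below D3 A (35.7%). Unthinned, 80.9% of D0 A cells held Rspo3 and 66.0% Wnt9b.

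**Figure D3:**
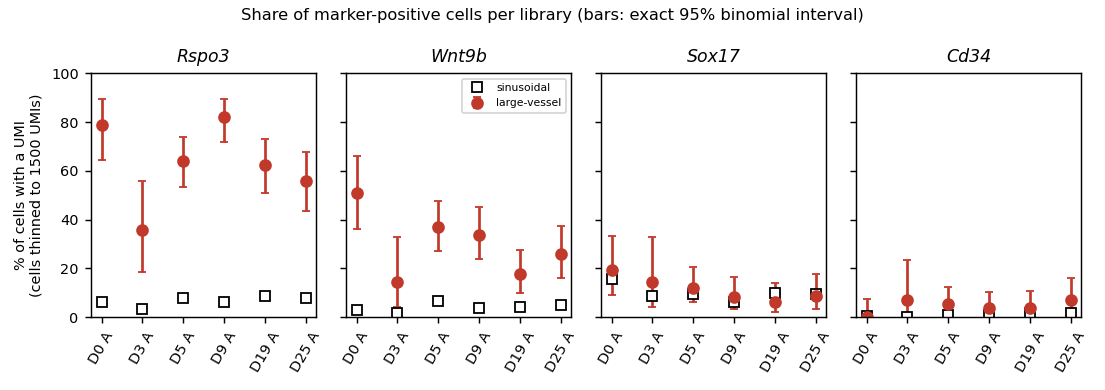
Share of cells with a UMI of Rspo3, Wnt9b, Sox17 and Cd34 after thinning to 1500 UMIs, in percent, by protocol A library; red points are large-vessel cells with exact 95% binomial intervals, which cover counting error only, and black squares are sinusoidal cells. The Rspo3 share runs from 35.7% (D3 A) to 81.9% (D9 A), and Wnt9b is highest in D0 A at 51.1%.

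The response of gene levels to the diet was tested over the 6 protocol A libraries, with 6164 genes, in 1 edgeR fit of the stages. Steady state was a single library there (D0 A) and was assumed to vary like the others. Onset against steady state had 0 genes called (0%), with 604 (9.8%) at an unadjusted p under 0.05 by edgeR and 2 called by DESeq2. Replacing the TMM scaling factors by total counts moved the median log2 fold change of all genes by −0.31 for onset and −0.36 for progression, both against steady state, and by −0.04 for progression against onset.

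Lrg1, a secreted glycoprotein of vessels and the acute phase, stood at 199, 852, 1787, 815, 1306 and 1037 CPM. All DDC libraries were above D0 A, and 16 of 47 D0 A cells held it against 82 of 92 in D5 A. It was not called at onset (log2 fold change 3.04 ± 0.58, edgeR adjusted p = 0.205) or in progression (2.76 ± 0.56, adjusted p = 0.0519). Cyp1a1, a target of the aryl hydrocarbon receptor, stood at 33.1 in D0 A, 332 in D3 A and 177 in D5 A (3.29 ± 0.69, adjusted p = 0.205). The heat shock gene Hspa1a went the other way, at 1270, 515, 111, 223, 99.2 and 91.1, and was not called in progression (−2.83 ± 0.60, adjusted p = 0.0602). The other genes of lowest p at onset, none of them called (edgeR adjusted p 0.205 to 0.373), were H4c4, Efna1, Crim1, Mbd4, Lars2, Cdv3, Cd36 and Ndufc1 with positive differences and Ltbp1, Setd7, Fbxl18, Zdhhc18, Glce, Igfbp5, Etnk1, BC005537 and Ids with negative ones.

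Progression against steady state had 9 genes called (0.146%), 3 higher (0.0487%) and 6 lower (0.0973%), with 590 (9.57%) at an unadjusted p under 0.05. The higher genes were the galectin Lgals3 (0 in D0 A, at least 8.20-fold higher, edgeR adjusted p = 0.0156), the cathepsin Ctss (0 in D0 A, at least 6.49-fold higher, adjusted p = 0.0335), and the neutrophil chemokine Cxcl2 (7.45 ± 1.38, adjusted p = 0.0314). Lgals3 and Ctss are known from macrophages. The lower genes included the small GTPase Rasl11a, at 232 in D0 A and 12.4 to 27.7 in progression (−3.02 ± 0.50, adjusted p = 0.0149), and the hepatocyte genes Mup3, at least 34.5-fold lower, and Serpina1e (−5.11, adjusted p = 0.0381). The mitochondrial transcripts mt-Co3 and mt-Atp6 and the predicted gene Gm48565 were the other 3. The count was 82 without D9 A, 20 without D19 A and 16 without D5 A. Without D25 A only 1 gene was called, and Lgals3, Ctss, Cxcl2, Rasl11a, Mup3 and Serpina1e all lost the call. Genes of low p that were not called (edgeR adjusted p 0.0519 to 0.194) included Mir6236 with a positive difference and Serpina1c, Rnd1, Hspa1b, Sprr2b, Rasgrp3, Slc29a1 and Dnajb1 with negative ones.

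Progression against onset, the comparison with more than 1 library on both sides, had 30 genes called of 6164 (0.487%), 22 higher (0.357%) and 8 lower (0.13%), with 428 (6.94%) at an unadjusted p under 0.05. The count was 8 without D3 A, 17 without D5 A, 11 without D25 A and 100 without D9 A. The lower genes included Isg15, Ly6a and Adgrg6, and the higher ones Cxcl2, Thbs1, Fn1, Mt1 and Lyz2. Isg15, the ubiquitin-like protein that interferon induces, stood at 290 and 288 CPM in D3 A and D5 A and at 52.7, 62.3 and 21.7 in D9 A, D19 A and D25 A, with 188 in D0 A. The groups did not overlap, and Isg15 fell by 2.60 on the log2 scale with an SE of 0.38 (edgeR adjusted p = 0.00321). The call held without each library in turn. It also held in Rspo3-negative cells alone (−3.29, adjusted p = 0.00997) and was not made in Rspo3-positive cells alone (−1.55, adjusted p = 0.229), and the difference between the 2 was not tested.

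Isg15 was the only member of the interferon list called. Of 14 members tested, 13 had a negative log2 fold change and 1 was called, with a median of −0.99 against 0.01 over all tested genes. Ifit1, an RNA-binding interferon effector, stood at 116 in D0 A, 107 and 65.7 at onset and 27.9, 2.31 and 13 in progression (−2.56 ± 0.60, adjusted p = 0.0697). Antigen presentation had a median of −0.89 over 11 genes with 0 called, and the MHC class I gene H2-K1 ran 2496, 1699, 1302, 1076, 796 and 621. In the sinusoidal cells Isg15 ran 336, 98.7, 134, 123, 61.5 and 29.7, and onset and progression overlapped there. The interaction of cell type and diet, with the mean of onset and progression set against D0 A, was 1.28 ± 0.39 and not called. It did not test whether the fall from onset to progression differed between the cell types.

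The promoters of Isg15 and Ifit1 are printed because Isg15 was called and both hold letters that interferon-activated factors are known to bind. Ifit1 is shown beside it as a list member that was not called. They are RefSeq sequences of GRCm38.p6 from 250 bases before to 50 after the start, in the gene's direction, with matches to GAAANNGAAA or TTTCNNTTTC in capitals, and overlapping matches are joined.
Isg15 (chr4:156200769-156201068, minus strand): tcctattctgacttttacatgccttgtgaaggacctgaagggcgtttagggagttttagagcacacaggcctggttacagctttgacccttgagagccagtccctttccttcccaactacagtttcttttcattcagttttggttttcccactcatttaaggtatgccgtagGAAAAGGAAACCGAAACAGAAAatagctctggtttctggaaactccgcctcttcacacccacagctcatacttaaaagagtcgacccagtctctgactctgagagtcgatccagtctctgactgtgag
Ifit1 (chr19:34640639-34640938, plus strand): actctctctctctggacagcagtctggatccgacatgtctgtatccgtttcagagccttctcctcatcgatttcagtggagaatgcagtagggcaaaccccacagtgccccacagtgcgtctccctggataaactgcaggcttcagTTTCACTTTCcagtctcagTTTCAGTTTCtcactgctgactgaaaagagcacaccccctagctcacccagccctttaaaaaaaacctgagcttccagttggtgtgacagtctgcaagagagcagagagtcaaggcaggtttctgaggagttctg
Isg15 has 3 overlapping matches, the first starting 78 bases upstream, and Ifit1 has 2, the first 104 bases upstream. On either strand the motif was in 1131 of 32841 promoters of this length (3.44%). Counted by gene with any promoter, it was in 1079 of 27018 genes (3.99%) and in 11 of the 15 interferon-list genes with a promoter in the table (73.3%). A match is a description of the sequence and not evidence of binding.

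Of the other lower genes, Ly6a, Adgrg6, Vegfc and Cyp1a1 were also lower in Rspo3-positive than in Rspo3-negative cells. Ly6a, the stem cell antigen Sca-1, stood at 1936 and 2108 at onset and 474, 609 and 521 in progression, with 1226 in D0 A (−1.93 ± 0.34, edgeR adjusted p = 0.0115). Adgrg6 stood at 568 and 328 against 121, 108 and 161 (−1.84 ± 0.38, adjusted p = 0.0286), and Vegfc at 272 and 109 against 15.5, 41.5 and 52.1 (−2.40 ± 0.50, adjusted p = 0.0328). Onset and progression did not overlap for any of them. D3 A had the lowest share of Rspo3-positive cells, and the part of this share in the differences was not tested. Without D3 A none was called: Ly6a gave −1.78 (adjusted p = 0.168), Adgrg6 −1.15 (0.796) and Vegfc −1.41 (0.796). None was called without D25 A either, with adjusted p of 0.125, 0.141 and 0.125, and without D19 A Adgrg6 (adjusted p = 0.051) and Vegfc (0.0518) were not called. Within Rspo3-positive and Rspo3-negative cells alone Ly6a gave −1.54 and −1.48 and Adgrg6 −0.23 and −1.24, all not called.

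Cyp1a1, the xenobiotic monooxygenase, stood at 332 and 177 against 55.8, 53.1 and 52.1 in progression (−2.25 ± 0.40, edgeR adjusted p = 0.0129). The groups did not overlap. The call was lost without D3 A (−1.52, adjusted p = 0.263) and without D25 A (adjusted p = 0.107). It also marked Rspo3-negative cells, at 331, 143 and 140 against 98.7, 0 and 0 in D5 A, D19 A and D25 A (−2.73 ± 0.52, adjusted p = 0.00143). Rasl11a (−2.08 ± 0.44), Serpina1e (−5.04 ± 0.88) and the predicted gene Gm19220 (−2.83) were the remaining lower genes. Npr3, the clearance receptor of natriuretic peptides, was not called (−2.78, adjusted p = 0.0828). Rasl11a was not called without D3 A (−2.41, adjusted p = 0.057), D5 A (−1.32, 0.627) or D25 A (−2.19, 0.18), and Serpina1e not without D3 A (−3.86, 0.227) or D25 A (−4.73, 0.0927).

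The higher genes included secreted matrix proteins. Thbs1, the matricellular thrombospondin, stood at 53.3 and 22.6 at onset and 419, 321 and 208 in progression, with 49.7 in D0 A (3.25 ± 0.50, edgeR adjusted p = 0.00321). The groups did not overlap, but only 10, 13 and 7 cells of D9 A, D19 A and D25 A held a UMI, and the top cell held 27.1 to 38.1% of them. It was not called without D5 A (2.33, adjusted p = 0.13), and it was called without the cells that held leukocyte UMIs (4.68) and in Rspo3-negative cells alone (3.76, adjusted p = 0.0201). Fibronectin, Fn1, stood at 17.8 and 13.6 against 167, 78.5 and 78.1 (2.90 ± 0.55, adjusted p = 0.016), with 8 positive cells in each progression library. In D9 A 1 cell held 70.4% of its UMIs, and the call was lost without D3 A (adjusted p = 0.111), D5 A (0.414) or D25 A (0.066).

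Mt1, a metallothionein that binds zinc and copper, stood at 65.1 and 90.6 at onset and 205, 489 and 417 in progression (2.24 ± 0.42, edgeR adjusted p = 0.016). It was spread over cells, in 6 of 28 and 17 of 92 cells at onset and in 40 of 83, 39 of 80 and 40 of 70 in progression. D0 A stood at 282, of which 1 cell held 78.4%. Sinusoidal cells of the same libraries held more Mt1, at 719, 978, 1474, 1485, 2800 and 1331, D0 A first. The fitted difference of log2 responses, large-vessel minus sinusoidal, was −1.76 ± 0.40. A response there was the mean of onset and progression against D0 A. The call above was of progression against onset, which that interaction did not test. The call was lost without D3 A (adjusted p = 0.23), D5 A (0.176) or D25 A (0.125). Ptgs2, the inducible cyclooxygenase, stood at 0 and 6.79 against 55.8, 141 and 43.4 (4.09 ± 0.74, adjusted p = 0.0139), from 3 to 6 positive cells a library, and was not called without D3 A (adjusted p = 0.114), D5 A (0.13) or D19 A (0.116).

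Cxcl2 stood at 5.92 and 38.5 against 174, 1627 and 703 (5.00 ± 0.77, edgeR adjusted p = 0.00321), with 29, 21 and 18 positive cells in progression, and it was not called without D3 A (4.61, adjusted p = 0.114). Its UMIs were concentrated, with 3 cells holding 44.6% of them in D9 A, 64.7% in D19 A and 87.7% in D25 A. The lysozyme gene Lyz2 stood at 101 and 24.9 against 229, 688 and 304 (2.87 ± 0.59, adjusted p = 0.0286), and was not called without D5 A (1.78, adjusted p = 0.415) or D25 A (2.99, 0.141). Cd5l (3.32 ± 0.56), Marco, Clec7a, Clec4e, Tyrobp, C1qb and C1qc, genes known from macrophages, and Spp1 (4.12 ± 0.59) were also called higher. Without D5 A, Cd5l (2.53, adjusted p = 0.316) and Spp1 (3.57, adjusted p = 0.128) were not called, and Marco and Clec4e were not called without any 1 of D3 A, D5 A, D19 A and D25 A (Marco adjusted p 0.114 to 0.514, Clec4e 0.125 to 0.316). In sinusoidal cells Lyz2 ran 42.3, 49.0, 47.6, 260, 300 and 242. Of the leukocyte list 2 of 7 tested genes were called and all 7 were positive, with a median of 2.71. Over all tested genes 0.357% were called higher, 3141 of 6164 were positive and the median was 0.01. The protease Mmp9 (0 at onset, at least 9.70-fold higher), the chemokine Ccl4 (1 cell held 92.3% of its UMIs in D19 A), the copper carrier Cp, the lipase Lpl and the neuropeptide Nts were the other genes of large difference, and none of them was called without D3 A or without D5 A. Without the cells that held at least 3 leukocyte UMIs, Cxcl2 (2.96, edgeR adjusted p = 0.0473), Spp1 (3.89, 0.00291) and Mt1 (2.19, 0.00376) were still called, and 26 genes were called in all. Spp1 was on the cholangiocyte list, which summed to 49.7, 5.92, 4.53, 115, 87.7 and 143 CPM in large-vessel cells. In sinusoidal cells that list summed to 80.8, 6.54, 3.20, 129, 65.0 and 132. The part of RNA from other cells in the Spp1 difference was not tested.

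**Figure D4:**
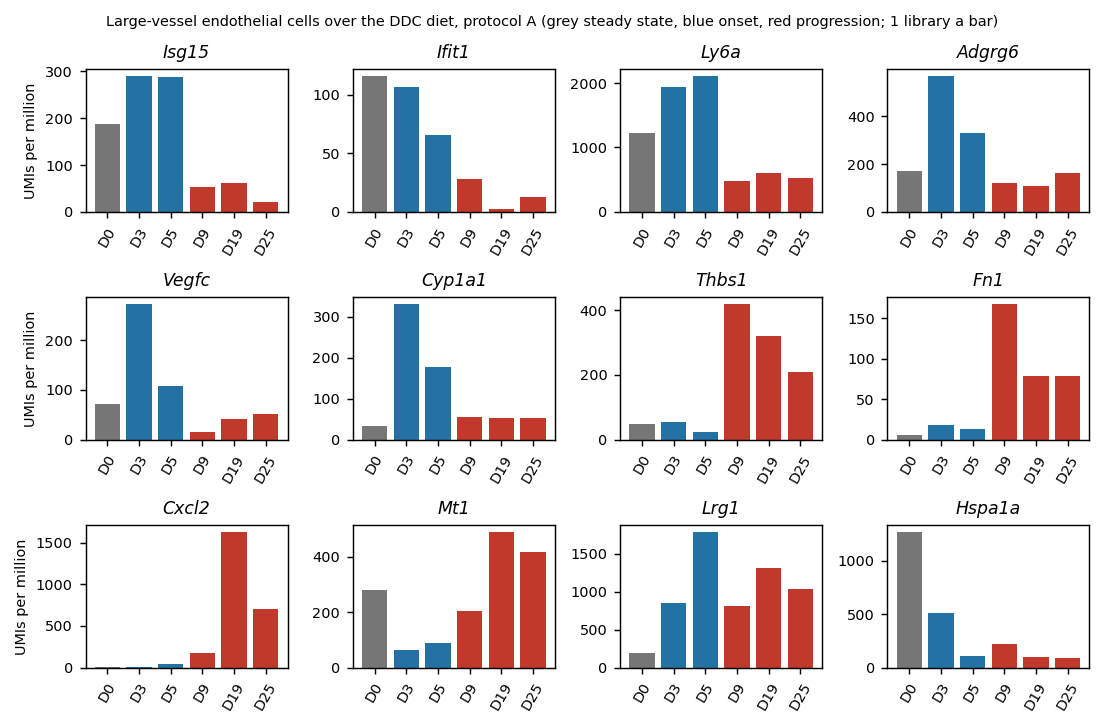
Levels of 12 genes in the 6 protocol A libraries, in CPM, 1 bar per library (grey steady state, blue onset, red progression). Isg15, Ly6a, Adgrg6, Vegfc and Cyp1a1 are lower in all 3 progression libraries than in both onset libraries, Thbs1, Fn1, Cxcl2 and Mt1 are higher, and Lrg1 and Hspa1a set D0 A apart from the rest.

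Other lists held 0 or 1 call between onset and progression, where 0.487% of all tested genes were called, so that counts of 0 say nothing particular about lists of this size. Large-vessel genes had 1 of 19 lower (Ly6a) with a median of −0.04, and central vein genes 0 of 9 with a median of −0.07. Rspo3 itself ran 2838, 1403, 3291, 2775, 1980 and 1576 and Wnt9b 563, 154, 435, 357, 240 and 226, each lowest in D3 A. Adhesion genes had 0 of 11 called, and Vcam1 ran 1320, 480, 1008, 636, 641 and 564. Angiogenesis (0 of 12), Notch (0 of 9), NF-kB (0 of 12) and angiocrine genes (0 of 17) had none called, with medians from −0.27 to 0.23. Immediate early and heat shock genes had 0 of 14 called, all 14 negative, with a median of −0.73.

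The diet response of large-vessel cells was then tested against that of sinusoidal cells in the same 6 libraries, as an interaction in edgeR. A response was the mean of onset and progression against D0 A, so a change from onset to progression was not tested here. Of 15094 genes tested, 62 were called (0.411%), 46 with a higher response in large-vessel cells (0.305%) and 16 with a lower one (0.106%), and 839 (5.56%) had an unadjusted p under 0.05. Of the 46, the sinusoidal level was below D0 A in all 5 DDC libraries for 34, and the large-vessel level was above D0 A in all 5 for 16. Mgp ran 398, 989, 582, 698, 1428 and 495 in large-vessel cells and 21.5, 0.821, 1.42, 9.49, 10.5 and 7.33 in sinusoidal cells, with a difference of log2 responses of 3.84 ± 0.38 (adjusted p = 3.8e-20). Every DDC library was above D0 A in the first and below it in the second. Few cells carried Mgp, 10, 8, 28, 13, 28 and 15 by library, with 3 cells holding 42.5 to 89.8% of its UMIs, and it was higher in Rspo3-negative cells, which were 9 of 47 in D0 A and 15 of 83 in D9 A but a larger share elsewhere. Genes of other cell types moved in the sinusoidal sums as well: stellate, fibroblast and muscle genes summed to 1267 in D0 A against 46.6, 87.9, 260, 440 and 378 on DDC, and hepatocyte genes to 1552 against 315 to 576. Their part in the interaction was not tested. Fbln5 moved apart in the same way, at 160, 207, 217, 233, 286 and 299 against 12.1, 0.411, 0.735, 3.62, 4.30 and 6.02 (3.57 ± 0.44, adjusted p = 1.97e-12).

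The largest fitted differences were those of Pf4, Apob and Atg16l1, which were at 0 in large-vessel cells of D0 A, so that their fold is not given. Pf4, a platelet gene, reached 480 in D3 A and was not called without it. Mmrn1 reached 612 in D25 A and Cxcl12 164 in D19 A, with at most 46.2 and 16.6 in the other 5 libraries, and Mmrn1 was not called without D3 A or D25 A, nor Cxcl12 without D5 A or D19 A. Efna1 (2.99), C3 (2.82), Abca1 (−1.54) and Bcam (−1.51) were called but not under DESeq2.

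Central vein genes had the other sign. Of the 10 tested, 4 were called lower (Lhx6, Selp, Thbd and Wnt9b), where 0.106% of all tested genes were, all 10 were negative and the median was −0.89 against 0.18 over all tested genes. Thbd was not called without D5 A (−1.17, adjusted p = 0.132) or D19 A (−1.19, 0.101). Wnt9b in sinusoidal cells ran 18.1, 38.4, 62.9, 41.4, 39.9 and 37.5 (−2.26 ± 0.36, edgeR adjusted p = 3.98e-07), above D0 A in each DDC library while the large-vessel cells were below it. Selp ran 20.7, 25.1, 71.8, 64.1, 165 and 263 in sinusoidal cells and 536, 160, 557, 381, 404 and 703 in large-vessel cells (−2.34 ± 0.36, adjusted p = 1.7e-07). All of these responses rest on D0 A as the only steady-state library. Rspo3-positive cells had more Wnt9b, Lhx6 and Selp in the split of D5 A, D19 A and D25 A, but less Selp in D0 A and D9 A. They were 38 of 47 cells in D0 A and 10 of 28, 59 of 92, 68 of 83, 53 of 80 and 41 of 70 in the DDC libraries. The part of this share in the responses was not tested.

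The libraries with too few cells for a test were given as levels with exact 95% Poisson intervals, which cover counting error only. D25 B held 13 large-vessel cells with 142732 UMIs and STOP 13 cells with 63239 UMIs. Matrix and basement membrane genes summed to 17326 CPM in D25 B and 7574 in STOP, against 3971 to 5079 in the 6 protocol A libraries. The stellate, fibroblast and muscle list stood at 245 in D25 B, of which 1 cell held 85.7%, and at 79.1 in STOP, against 23.7 to 188 in protocol A. Within the matrix list Sparc, a collagen-binding glycoprotein, stood at 7202 in D25 B, in all 13 cells, and Col4a1 at 1920, in 9 cells, against at most 908 and 143 in protocol A. Central vein genes summed to 1107 in D25 B, below the 3149 to 6521 of protocol A, and 2 of its 13 cells held Rspo3. STOP held Rspo3 in 6 of 13 cells. D25 A, the same day under protocol A with 70 cells, gave 3971 for the matrix list and 3785 for central vein genes. Protocol and the single library cannot be told apart there, and for STOP protocol and stage cannot be told apart, since D19 B had 5 cells.

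**Figure D5:**
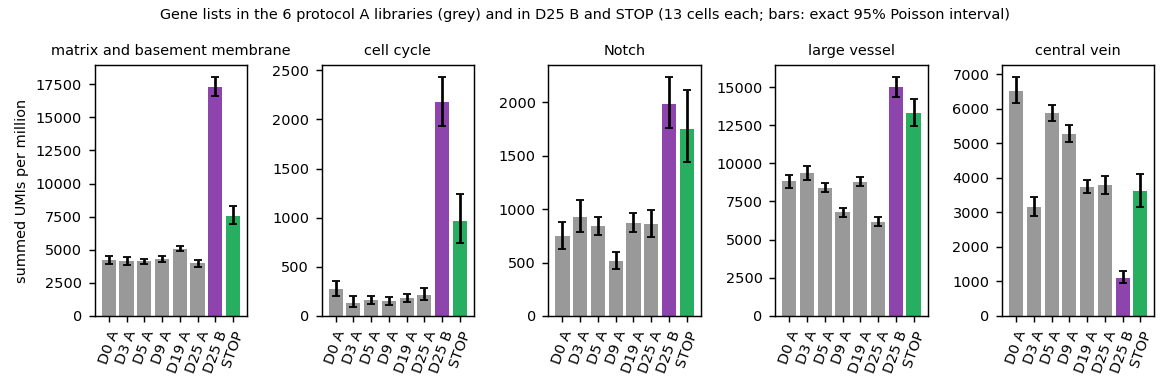
Summed levels of 5 gene lists in CPM in the 6 protocol A libraries (grey), D25 B (purple) and STOP (green), with exact 95% Poisson intervals. Matrix, cell cycle, Notch and large-vessel sums in D25 B and STOP are above all 6 protocol A libraries, and the central vein sum of D25 B is below them.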

How the data were processed

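Processed 10x Genomics 3′ single-cell RNA libraries (v3.1) of mouse liver were used. The authors deposited UMI counts per gene and barcode for each library, not normalized; their processing notes name kallisto and GRCm38, with versions not given in the sources used here. Barcodes of at least 1500 UMIs entered, and the members' counts were summed per library where at least 20 were present. The members, the Rspo3 split and the gene lists were chosen with earlier results of these data known. Doublets were not removed. Sums were tested with edgeR 4.0.16 (R 4.3.3; quasi-likelihood, TMM, filterByExpr, Benjamini-Hochberg adjusted p under 0.05); the protocol term was dropped since only protocol A libraries remained. DESeq2 1.42.0, other filters and gates, and leaving out each library were alternatives. Named genes were the 10 largest log2 fold changes per direction among called genes with mean log2 CPM of at least 5, filled up by lowest p, without predicted, mitochondrial, ribosomal and the 9 selection genes, plus list members; genes outside this rule were chosen after their values were seen. Scripts (Python 3.11.15, numpy 2.4.6, scipy 1.17.1) were tested on simulated data. Of 200 genes changed by 2 on the log2 scale, onset against steady state recovered 20.5% and progression against steady state 25.5%. Progression against onset recovered 68%, the Rspo3 split 82.5% and the interaction 17.5%. Counting intervals are exact at 95% and floors rest on 3 counts.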

Additional observations from a re-analysis of the deposited data

Results flagged for a closer look

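The values below stand outside the tested comparisons or differ between the 2 endothelial cell types, and none was explained. In D25 B, whose 13 large-vessel cells entered no test, the summed level was above the interval of every protocol A library for the large-vessel list (14986 CPM), the Notch list (1990), the matrix and basement membrane list (17326) and the cell cycle list (2172). In STOP, also 13 cells, the same held for the large-vessel list (13299), the Notch list (1755), the matrix list (7574) and the cell cycle list (965). A single cell held 68.4% of the cell cycle UMIs in D25 B and 72.1% in STOP. D25 A, the same day under protocol A, gave 6185 for the large-vessel list, 859 for Notch, 3971 for matrix and 213 for cell cycle genes, while STOP has no protocol A library of its stage, so protocol and stage cannot be told apart for it.

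The diet response differed between large-vessel and sinusoidal cells for 62 genes in edgeR's interaction test. Of 36 named genes among them, the 9 still called without the filter on low counts, with DESeq2, at 3000 UMIs per cell and without each DDC library in turn were Mgp (3.84 on the log2 scale), Fbln5 (3.57), the actin-severing gelsolin Gsn (4.78), the Wnt antagonist Dkk2 (6.28), Adgrg6 (2.30), Wnt9b (−2.26), Selp (−2.34), Entpd1 (−2.16) and the chemokine scavenger Ackr3 (−2.62). All of these responses rest on D0 A as the only steady-state library. Ackr3 ran 293, 148, 174, 58.9, 122 and 34.7 CPM in large-vessel cells, D0 A first. In sinusoidal cells of the same libraries it ran 17.4, 87.3, 64.2, 23.4, 31.6 and 14.1. Gsn ran 22.1, 29.6, 18.1, 18.6, 76.1 and 47.7 in large-vessel cells, and 154, 2.77, 2.78, 30.4, 39.3 and 8.96 in sinusoidal cells. The stellate, fibroblast and muscle list in those sinusoidal cells summed to 1267, 46.6, 87.9, 260, 440 and 378, and its part in the Gsn difference was not tested. Dkk2 was at 3.22 in sinusoidal cells of D0 A and between 0 and 0.354 on DDC. It was at 0 there in D3 A and D5 A, so its fitted 6.28 is in part a fold over 0 and not exact. In large-vessel cells Dkk2 stood at 25.4 to 58.9, where 1, 1, 3, 5, 4 and 3 cells held it.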

How the results depend on the processing

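Counts of called genes moved with several choices. Onset against steady state (0 called) gave 31 without the filter on low counts, 6 with total counts, 2 with DESeq2, 3 without cells holding fibroblast, lymphatic or platelet UMIs, 5 without cells holding leukocyte UMIs, 1 in Rspo3-positive cells, and 0 to 33 without each library (33 without D9 A, 5 without D5 A, 1 without D19 A). Progression against steady state (9) gave 60, 20, 6 with DESeq2, 22 and 22, and 5 in the same order, 0 with at least 5 Vwf UMIs (470 at an unadjusted p under 0.05 by edgeR), and 1 (without D25 A) to 82 (without D9 A), with 16 without D5 A and 20 without D19 A. Progression against onset (30) gave 107 without the filter, 13 with DESeq2, 44 with total counts (32 higher, 12 lower), 26 without leukocyte-UMI cells, 11 with at least 5 Vwf UMIs, 55 without fibroblast, lymphatic or platelet cells, 19 with at least 50 cells a library, 4 in Rspo3-positive and 7 in Rspo3-negative cells, and 8 (without D3 A) to 100 (without D9 A), with 17 without D5 A and 11 without D25 A. The Rspo3 split (275) gave 133 with DESeq2, 112 thinned, and 134 (without D5 A) to 347. The interaction (62) gave 25 with DESeq2 and 51 to 75. Prox1's share difference (−0.821 points) was 0.815 unthinned, 1.41 at 3000 UMIs and −1.03 to −0.313 without each library. S100a8's interaction (−1.63) reversed to 12.1 at 3000 UMIs, and the cause was not tested. Calls that held under every alternative run for their comparison were 0 of 6 named genes in progression against steady state, 0 of 22 against onset, 45 of 76 in the Rspo3 split and 9 of 36 in the interaction; total counts, 5 Vwf UMIs and the cell exclusions were not run for the split or the interaction. The leukocyte, Rspo3-side and 10-cell alternatives were chosen after seeing the data. Protocol B alone was not run, since no such library held 20 cells. No paired analysis was possible because time points carry no replicate that pairs stages.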

Other observations

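Large-vessel cells of D25 B differed from those of protocol A in single genes as well. Of 300 list genes, 41 had a 95% interval above those of all 6 protocol A libraries and 22 below, and in STOP 17 were above and 3 below (Ece1, Eng and Mgp). The share over all genes was not counted, so these counts say nothing particular about the lists. With 13 cells in each library, the intervals cover counting error only and not the spread between cells. In D25 B the chemokine receptor Cxcr4 stood at 680 CPM, Col4a2 at 2676, the Notch target Hey1 at 217, Dll4 at 266 and Ly6c1 at 876, the last in 11 of 13 cells. Rspo3 at 231, Edn1 at 378 and Bmp4 at 119 were below protocol A. In STOP the matrix genes Sparc (2451), Col4a2 (886) and Col4a1 (427) and Ly6c1 (648) were above protocol A, and the placental growth factor Pgf, an angiogenic ligand, stood at 142.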
